A study of Homo sapiens with 12 samples.

Results

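SOBP and ARID5B, 2 of the 14884 genes measured, were followed on 12 expression arrays of Ishikawa cells, a human endometrial adenocarcinoma line. The series concerns MOF, the histone acetyltransferase encoded by KAT8, and the oestrogen receptor ERα, encoded by ESR1. The 4 groups held 3 arrays each and were shMOF ERα(+), control ERα(+), shMOF ERα(-) and control ERα(-). shMOF names a short hairpin against MOF. The labels do not say how the ERα conditions were made, which hairpin was used, or whether the replicates came from separate cultures, so spreads and p-values cover only the spread between these arrays. Both genes were chosen by a rule that used these measured values: the difference between shMOF and control arrays pointed down in ERα(-) and up in ERα(+). Their differences are therefore given as a description, without a test. Each gene had 1 named probe set, 17011378 for SOBP (chromosome 6, 107490117 to 107661306, GRCh38.p14) and 16705199 for ARID5B (chromosome 10, 61901699 to 62096944, GRCh38.p14).

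SOBP, the sine oculis binding protein, is a nuclear zinc finger protein named for a fly protein that binds the homeodomain factor Sine oculis. Mammalian relatives of Sine oculis act with EYA and DACH proteins in the development of sense organs, and in mice a disrupted Sobp causes deafness and circling. ARID5B carries an AT-rich interaction domain, which binds DNA, and partners the histone demethylase PHF2. It takes part in cartilage formation, fat cell formation and lymphocyte development, and common variants near it are associated with childhood leukaemia.

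The promoter windows of both genes are shown because the genes followed each other over these arrays. They run from 250 bases before to 50 after each start and come from RefSeq on GRCh38.p14, plus strand, with 1 start listed for SOBP and 2 for ARID5B. The letters in capitals mark every match, on either strand, to 6 motifs: GGTCA (the core of an oestrogen response element), GGGCGG (a GC box), TATAAA (the TATA box), CCAAT (the box named by its letters), TGACGTCA (a cAMP response element) and CACGTG (an E-box). None of the matches overlapped another.
SOBP, chr6:107489867-107490166: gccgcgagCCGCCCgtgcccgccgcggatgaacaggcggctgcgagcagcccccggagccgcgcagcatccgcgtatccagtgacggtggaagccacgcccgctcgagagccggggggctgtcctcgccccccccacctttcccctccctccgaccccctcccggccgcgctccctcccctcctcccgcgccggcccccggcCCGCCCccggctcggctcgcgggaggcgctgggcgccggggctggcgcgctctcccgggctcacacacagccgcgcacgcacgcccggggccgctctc
ARID5B, first start, chr10:61901449-61901748: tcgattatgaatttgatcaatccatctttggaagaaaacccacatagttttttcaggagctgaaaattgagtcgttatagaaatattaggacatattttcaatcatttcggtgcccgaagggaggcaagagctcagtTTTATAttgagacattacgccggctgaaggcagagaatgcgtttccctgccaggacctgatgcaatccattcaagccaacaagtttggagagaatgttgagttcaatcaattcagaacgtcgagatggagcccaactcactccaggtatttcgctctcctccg
ARID5B, second start, chr10:62049107-62049406: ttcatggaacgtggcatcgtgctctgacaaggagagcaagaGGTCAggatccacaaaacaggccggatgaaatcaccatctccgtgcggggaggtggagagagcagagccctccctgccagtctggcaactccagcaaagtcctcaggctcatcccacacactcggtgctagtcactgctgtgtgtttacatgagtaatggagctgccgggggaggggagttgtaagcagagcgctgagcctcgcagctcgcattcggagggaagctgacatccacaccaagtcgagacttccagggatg

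The windows had little in common. G and C made up 80.7% of the SOBP window, more than in 97.9% of 35116 promoter windows, against 43.0% and 57.3% at the first and second ARID5B starts and a median of 58.7%. SOBP held 45 CpG dinucleotides, and the ARID5B windows held 11 and 12, where the median window held 14. SOBP had 2 GC boxes, both reading on the minus strand, with first bases at -242 and -48 counted from the start. A GC box was found in 45.0% of all windows. The first ARID5B start had a TATA box on the minus strand at -113, a motif of 11.5% of windows. The second had the core of an oestrogen response element on the plus strand at -209, a motif of 37.4% of windows. No CCAAT box, cAMP response element or E-box was found in these 3 windows, against 34.6%, 1.85% and 7.26% of all windows. These are matches of letters only, and the array does not say from which ARID5B start the RNA came.

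In the ERα(+) condition, both genes were higher in shMOF arrays than in control arrays. SOBP read 6.40, 6.53 and 6.45 on the log2 scale in the 3 shMOF ERα(+) arrays, against 5.81, 5.64 and 5.90 in the control ERα(+) arrays. Each shMOF array lay above every control array. The log2 difference was 0.67 ± 0.13 (SE), or 1.60-fold. ARID5B read 6.07, 6.35 and 6.26 in the shMOF arrays, against 5.92, 5.36 and 5.33 in the control arrays. Here too the groups did not overlap, and control replicate 1, at 5.92, lay nearest to the shMOF arrays. The log2 difference was 0.69 ± 0.26 (SE), or 1.61-fold. Such a gap without overlap was common in this comparison: 26.2% of all genes showed one, 12.2% with shMOF higher. SOBP and ARID5B lay above the median level of all genes, and 2742 of the 7442 genes at or above it showed one.

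In the ERα(-) condition, the direction was the other way round. SOBP read 5.73, 6.16 and 6.02 in the shMOF ERα(-) arrays, against 6.65, 6.49 and 6.38 in the control ERα(-) arrays. The shMOF arrays all lay below the control arrays, with a log2 difference of -0.54 ± 0.13 (SE), a level 1.45-fold lower. ARID5B read 5.57, 6.41 and 5.33 in the shMOF arrays, against 6.84, 6.25 and 6.17 in the control arrays. These groups overlapped, because shMOF replicate 2 lay above 2 of the 3 control arrays. The log2 difference was -0.65 ± 0.26 (SE), a level 1.57-fold lower, and its size depended on single arrays, in both directions. It was -0.44 without shMOF replicate 3 or without control replicate 1, and -0.98 without shMOF replicate 2. Groups did not overlap for 8.76% of all genes in this comparison, and for 4.66% with shMOF lower. Among the 7442 genes at or above the median level, the count without overlap was 521.

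**Figure D1:**
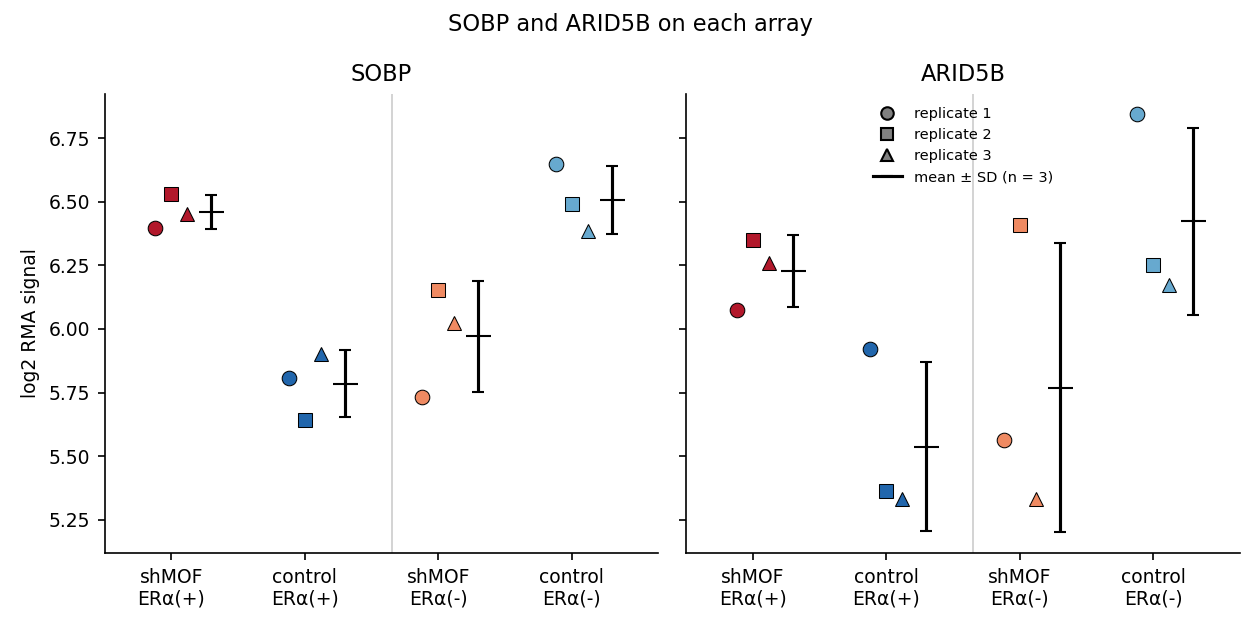
Log2 RMA signal (vertical axis) of SOBP and ARID5B on each of the 12 arrays, by group (horizontal axis). Symbols are replicates and bars are mean ± SD over 3 arrays. In SOBP the shMOF arrays lie above control in ERα(+) and below it in ERα(-) without overlap, while in ARID5B the shMOF ERα(-) array at 6.41 reaches into the control arrays.

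The turn itself, called the interaction here, subtracts the ERα(-) difference between shMOF and control from the ERα(+) one. It was 1.21 ± 0.19 (SE) for SOBP and 1.34 ± 0.37 for ARID5B on the log2 scale. As ratios of ratios these are 2.32-fold and 2.54-fold. SOBP had the 68th and ARID5B the 39th highest interaction of the 14884 genes. Leaving out 1 array at a time, SOBP stayed between 1.09 and 1.30 and ARID5B between 1.13 and 1.67. Genes whose groups did not overlap in either condition and whose sign turned made up 1.26% of all genes, with 0.544% turning in the direction of SOBP and 0.712% in the other. SOBP was one of them and ARID5B was not, because of its overlap in ERα(-). Among the 7442 genes at or above the median level, 121 turned sign without overlap.

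The same 4 means can be read across the ERα label. In control arrays SOBP was lower in ERα(+) than in ERα(-) by a log2 difference of -0.72 ± 0.13 (SE), and ARID5B by -0.89 ± 0.26, both without overlap. In shMOF arrays SOBP was higher in ERα(+) by 0.49 ± 0.13, again without overlap. ARID5B was at 0.46 ± 0.26 there, and its groups overlapped. That last value was 0.78 without shMOF ERα(-) replicate 2 and 0.24 without shMOF ERα(-) replicate 3. Groups did not overlap for 19.3% of all genes in the control arrays, 8.92% with ERα(+) lower, and for 9.51% in the shMOF arrays, 3.8% with ERα(+) higher. Among the 7442 genes at or above the median level, the counts were 1862 in control and 608 in shMOF arrays. These differences share arrays with those above and add no independent evidence.

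Both genes therefore had the same order of group means. SOBP averaged 6.46 ± 0.07 in shMOF ERα(+), 5.79 ± 0.13 in control ERα(+), 5.97 ± 0.22 in shMOF ERα(-) and 6.51 ± 0.13 in control ERα(-) (SD, n = 3 each). Control ERα(-) and shMOF ERα(+) were the upper pair and overlapped. The lower pair, shMOF ERα(-) and control ERα(+), also overlapped, and none of its arrays reached the upper pair. ARID5B averaged 6.23 ± 0.14 in shMOF ERα(+), 5.54 ± 0.33 in control ERα(+), 5.77 ± 0.57 in shMOF ERα(-) and 6.42 ± 0.37 in control ERα(-) (SD, n = 3 each). Each ARID5B group overlapped the next one in the order of means. The genes differed in how far the arrays of a group spread. The SD within groups was 0.147 for SOBP and 0.383 for ARID5B, where the median gene had 0.190, and 95.8% of genes spread less than ARID5B. Differences between groups held 87.0% of the variance of SOBP and 56.0% of that of ARID5B over the 12 arrays.

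The genes were opposed between conditions and not to each other: over the arrays they ran in parallel. Pearson's r between them was 0.83 and Spearman's rank correlation 0.78 over 12 arrays, given as a description, since both were chosen for the same turn. Without the 2 arrays farthest from the median of SOBP, r was 0.77. After each group's mean was taken away, r was 0.58, and between 0.43 and 0.71 when any 1 array was left out. In shMOF ERα(-) replicate 2, the array where ARID5B lay 0.64 above its group mean, SOBP also lay 0.18 above its own. In shMOF ERα(-) replicate 3 they parted, with ARID5B at -0.44 and SOBP at 0.05 from their group means.

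**Figure D2:**
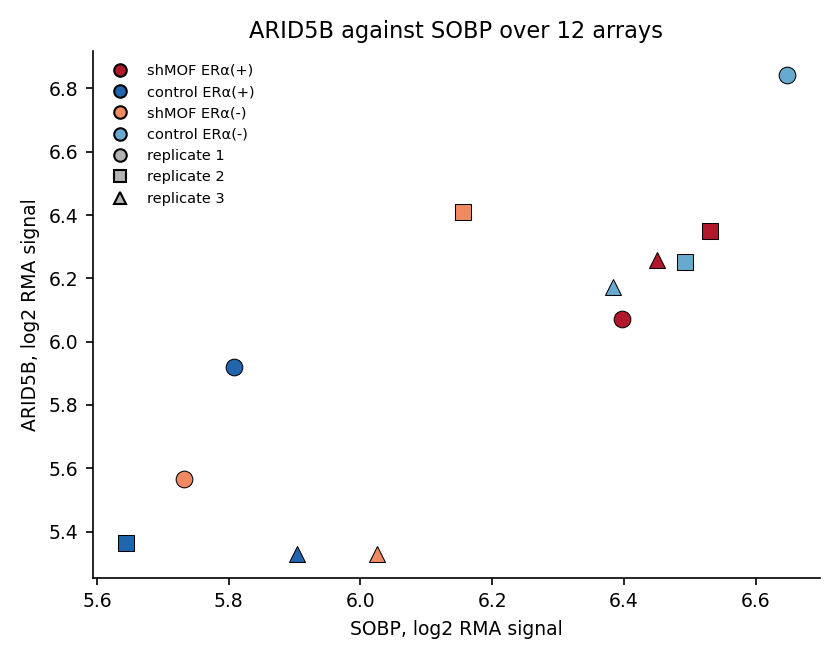
ARID5B (vertical axis) against SOBP (horizontal axis), both as log2 RMA signal, with 1 point for each of 12 arrays, coloured by group and shaped by replicate. The control ERα(-) and shMOF ERα(+) arrays lie together at the upper right, and shMOF ERα(-) replicate 2 stands above the rest of its group in ARID5B.

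The labels and the arrays as a whole bear on how these values can be read. KAT8 read between 6.66 and 7.02 in shMOF ERα(+), 6.60 and 6.81 in control ERα(+), 6.72 and 6.78 in shMOF ERα(-), and 6.68 and 6.87 in control ERα(-), with a log2 difference between shMOF and control of 0.04 ± 0.13 (SE) in ERα(+) and -0.02 ± 0.13 in ERα(-). ESR1 was between 4.12 and 4.65 on the 12 arrays, below the median level of 5.66, where RMA can compress differences. Its difference between ERα(+) and ERα(-) was 0.18 ± 0.12 (SE) in control arrays. In shMOF arrays it was -0.15 ± 0.12, without overlap, as in 9.51% of all genes. At this level ESR1 thus did not follow the ERα label. shMOF, control and ERα below thus name the labels of the arrays. Limma called 0 of 14884 genes in the interaction (0%). SOBP had the lowest limma adjusted p, 0.0696, but was chosen for this turn, so for SOBP it is no test. Before adjustment, 2685 genes (18%) had a p below 0.05, 9.35% upward and 8.69% downward, and the adjusted count was 570 without shMOF ERα(-) replicate 2. Fitted alone, the 7442 genes at or above the median level had 2054 such unadjusted p-values, 1049 of them upward. The other comparisons also had 0 calls, with unadjusted p-values below 0.05 in 18.7% of genes (shMOF against control within ERα(+)), 4.78% (the same within ERα(-)), 5.33% (ERα(+) against ERα(-) among shMOF arrays) and 12.7% (the same among control arrays). The first principal component of all genes, 36.8% of the variance, lay between -29.8 and -4.40 in shMOF ERα(+), 3.60 and 32.9 in control ERα(+), -18.0 and 22.3 in shMOF ERα(-), and -11.9 and -3.58 in control ERα(-). It had r = -0.70 with SOBP and -0.73 with ARID5B over 12 arrays. With the component as a covariate, the interaction was 1.08 for SOBP and 0.74 for ARID5B. For ARID5B it also left the shMOF difference in ERα(+) at 0.24, and the ERα difference at 0.18 in shMOF arrays and -0.56 in control arrays. With arrays weighted by quality, these 3 values were 0.43, 0.85 and -0.51. Those weights rested the shMOF ERα(-) mean mostly on replicate 3 (weight 8.86) and the control ERα(+) mean mostly on replicate 1 (weight 3.70). Of the markers of epithelium, which fit the line's label, 6 of 10 were measured, and all 6 lay at or above the median level of tested genes. Fibroblast markers (3 of 8 measured) and endothelial markers (4 of 5) all lay below it. The epithelial markers had a median interaction of -0.40, with 0 called and 2 below 0.05 before adjustment, KRT18 at -0.46 ± 0.21 (SE) and EMX2 at -0.64 ± 0.19. The median was -0.05 for fibroblast, -0.09 for immune and -0.01 for endothelial markers, and the part of these shifts in the values of SOBP and ARID5B was not tested.

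**Figure D3:**
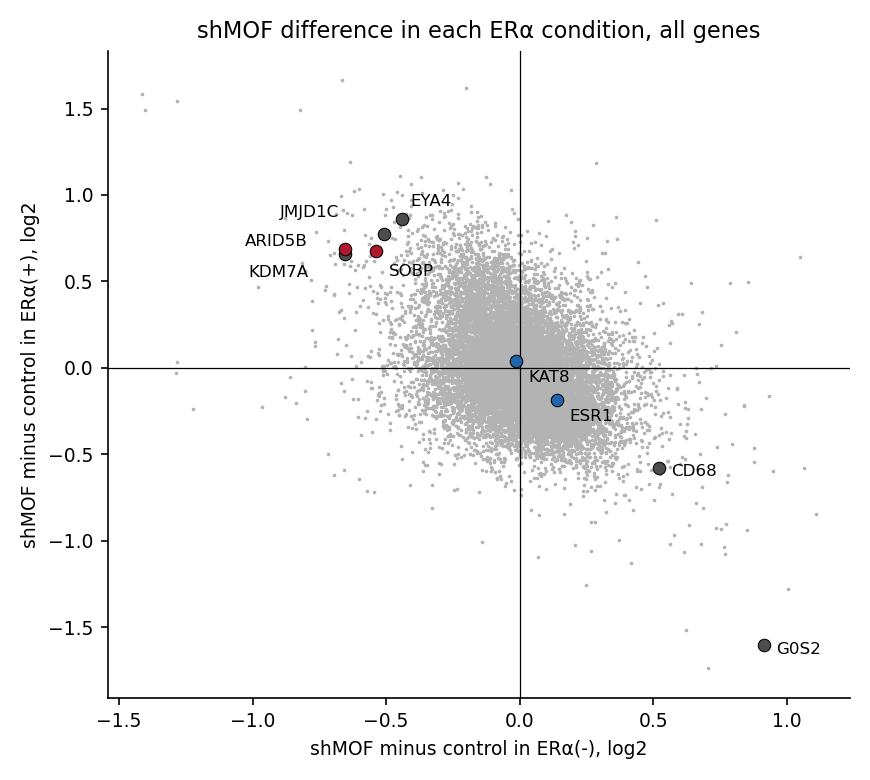
Log2 difference between shMOF and control arrays in ERα(+) (vertical axis) and in ERα(-) (horizontal axis), with 1 point for each of 14884 genes and 9 genes labelled. SOBP (-0.54 and 0.67) and ARID5B (-0.65 and 0.69, horizontal value first) lie at the edge of the cloud at the upper left, G0S2 and CD68 lie at the lower right, and KAT8 lies near 0 on both axes.

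Genes around SOBP were compared to see whether the turn was shared along the chromosome. Of the 5 nearest tested genes on each side, which lay 212.0 to 860.5 kb away by their starts, 0 of 10 were called by limma in the interaction (lowest adjusted p = 0.228) and 3 had an unadjusted p below 0.05, against 18% of all genes. Their median interaction was 0.36, against -0.03 for all genes. Of the 10, 8 lay at or above the median level, where 2054 of 7442 genes had an unadjusted p below 0.05. SEC63, which helps move proteins into the endoplasmic reticulum, was at 0.60 ± 0.27 (SE), QRSL1, which helps charge mitochondrial tRNA, at 0.58 ± 0.22, and the surface protein gene CD24 at 0.56 ± 0.31. AFG1L, a mitochondrial ATPase, was at 0.50 ± 0.26, MIR587 at 0.43 ± 0.18 and OSTM1, a lysosomal membrane protein gene, at 0.28 ± 0.18. The other way lay BEND3, a repressor of transcription, at -0.39 ± 0.21, the sorting nexin SNX3 at -0.32 ± 0.20 and MTRES1, a mitochondrial RNA-binding protein gene, at -0.19 ± 0.19. SCML4, the next gene beyond SOBP and related to Polycomb proteins, was at 0.00059 ± 0.17. SOBP, at 1.21, lay above the highest of these neighbours.

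Around ARID5B, 0 of 10 neighbours were called (lowest limma adjusted p = 0.219) and 2 had an unadjusted p below 0.05, close to the 18% of all genes. They lay 238.8 to 2728 kb away, and their median interaction was 0.10. JMJD1C, a member of the jumonji family of histone demethylases, was at 1.29 ± 0.40 (SE), close to ARID5B itself, and RTKN2 was at 1.03 ± 0.40. JMJD1C differed between shMOF and control arrays by 0.78 in ERα(+) and -0.51 in ERα(-), and RTKN2 by 0.82 and -0.21. The mitotic kinase CDK1 was at 0.39 ± 0.23 and NRBF2, which takes part in autophagy, at 0.21 ± 0.16. The oxygenase gene ADO was at 0.11 ± 0.21, MIR1296 at 0.09 ± 0.30 and TMEM26 at 0.06 ± 0.18. PHYHIPL was at -0.10 ± 0.20, LINC01553 at -0.06 ± 0.34 and CABCOCO1 at -0.21 ± 0.23. The 2 neighbours with large values thus lay on the same side of ARID5B, with ADO and NRBF2 between them.

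**Figure D4:**
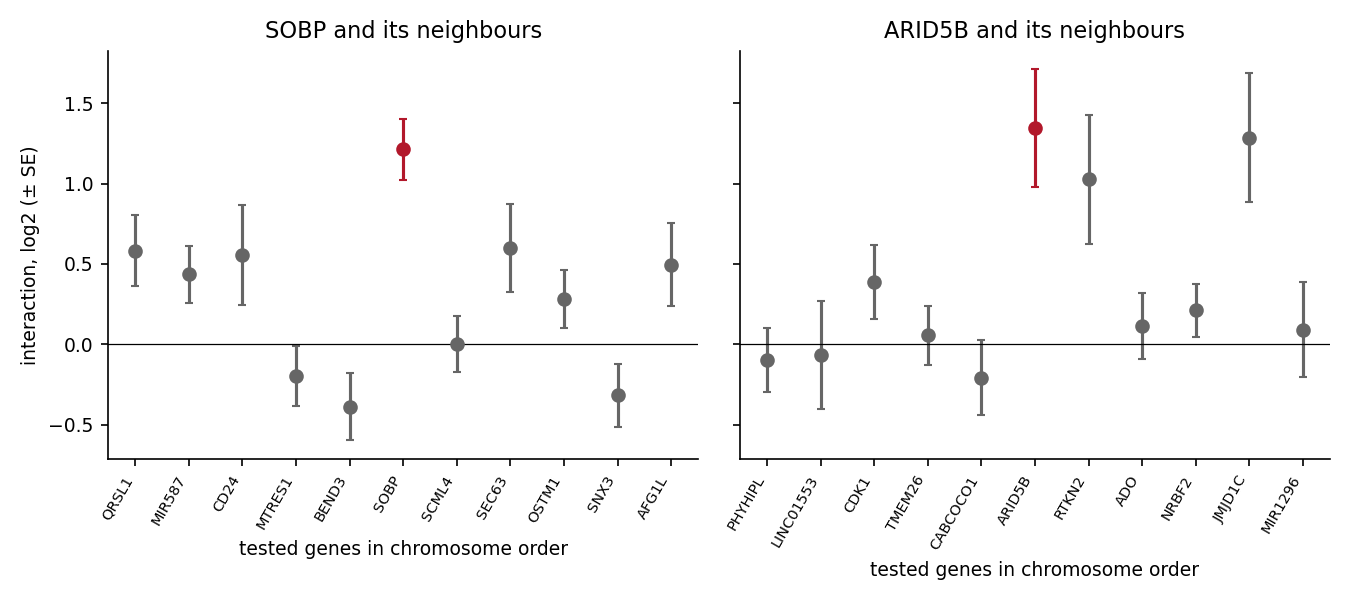
Interaction on the log2 scale (vertical axis) of SOBP and ARID5B (red) and of the 5 nearest tested genes on each side (grey), in chromosome order, with bars for the SE of the limma fit. JMJD1C (1.29) and RTKN2 (1.03) approach ARID5B, while the neighbours of SOBP lie between -0.39 and 0.60.

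ARID5B has relatives that share its DNA-binding domain. Of 13 other ARID genes listed, 10 were measured. None was called in the interaction (limma, lowest adjusted p = 0.228), 3 had an unadjusted p below 0.05, all upward, where 18% of all genes did so and 9.35% upward. The median was 0.12, against -0.03 for all genes. Of the 10, 8 lay at or above the median level, where 2054 of 7442 genes had an unadjusted p below 0.05, 1049 upward. The 3 ARID genes below 0.05 were ARID4B, a subunit of a histone deacetylase complex, at 0.79 ± 0.32 (SE), and the demethylases of histone H3 KDM5B and KDM5A at 0.58 ± 0.23 and 0.55 ± 0.21. ARID5A, the closest relative, was at 0.19 ± 0.27, and ARID3C at -0.25 ± 0.27. PHF2, the demethylase that partners ARID5B, was at -0.09 ± 0.19, with 7.02 in shMOF ERα(+), 7.13 in control ERα(+), 7.18 in shMOF ERα(-) and 7.19 in control ERα(-). Its relative PHF8 was at -0.13 ± 0.21. The third of that family, KDM7A, was at 1.31 ± 0.48, with shMOF minus control at 0.66 in ERα(+) and -0.66 in ERα(-) (limma adjusted p of the interaction = 0.223). Of 17 genes tied to ARID5B in cartilage, liver, fat or blood cells, 12 were measured, 0 were called (limma, lowest adjusted p = 0.279) and 0 had an unadjusted p below 0.05, and the median was -0.09. SOX9, the regulator of cartilage genes with which ARID5B works, was at -0.29 ± 0.22, ACAN, a cartilage matrix gene, at 0.38 ± 0.27, and the transcription factors RUNX2 and RUNX1 at -0.57 ± 0.27 and -0.34 ± 0.19. Only 4 of these 12 genes lay at or above the median level of 5.66. ACAN (4.03), RUNX2 (4.30) and RUNX1 (4.75) lay below it, where differences can be compressed, so the absence of calls says little about the dim genes.

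For SOBP, the sine oculis homeobox, EYA and DACH genes were listed with MCRS1, which is also a subunit of the NSL complex of MOF. Of 13, 12 were measured, and 0 were called in the interaction (limma, lowest adjusted p = 0.207), with a median of -0.07. At an unadjusted p below 0.05 were 2 upward and 2 downward, against 9.35% and 8.69% of all genes. EYA4, a phosphatase and co-activator of these homeobox factors, was at 1.30 ± 0.33 (SE), with shMOF minus control at 0.86 in ERα(+) and -0.44 in ERα(-). SIX4 was at 0.47 ± 0.19. EYA1 went the other way at -0.62 ± 0.25 and MCRS1 at -0.59 ± 0.23. SOBP has zinc fingers of a type found in Polycomb proteins. Of 19 genes listed with fingers of this or the related MYM type, or close relatives of such genes, 13 were measured and 0 called (lowest adjusted p = 0.219), with 4 upward and 1 downward at an unadjusted p below 0.05, against the same 9.35% and 8.69%. SCML2 was at 0.76 ± 0.24, SFMBT2 at 0.67 ± 0.20, SCML1 at 0.65 ± 0.28 and L3MBTL3 at 0.63 ± 0.27, and the list's median was 0.14. The 1 downward gene was PHC2 at -0.46 ± 0.21, with its relatives PHC1 at -0.08 ± 0.21 and PHC3 at 0.43 ± 0.26. Genes with such fingers were not separated from relatives without them. Of 17 genes of the SUMO pathway, which attaches a small protein to nuclear factors, 8 were measured and 0 called (lowest adjusted p = 0.236), with a median of 0.08 and 2 upward and 0 downward at an unadjusted p below 0.05, against 9.35% and 8.69% of all genes. The SUMO proteases SENP7 at 1.01 ± 0.40, SENP6 at 0.77 ± 0.30 and SENP1 at 0.49 ± 0.29 lay above 0, and SUMO2 was at -0.25 ± 0.15. All 8 measured SUMO genes lay at or above the median level. So did 9 of the 13 in the zinc finger list and 7 of the 12 listed with EYA and DACH. At that level 2054 of 7442 genes had an unadjusted p below 0.05, 1049 of them upward.

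**Figure D5:**
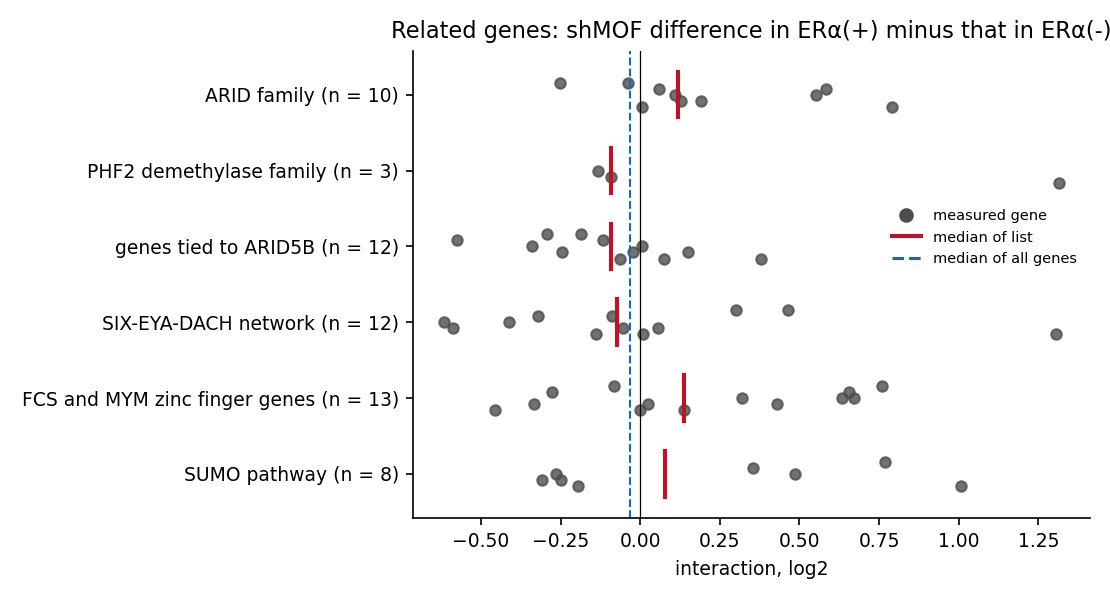
Interaction on the log2 scale (horizontal axis) of the measured genes of 6 lists of relatives and partners of SOBP and ARID5B, with 1 point per gene, the list's median in red and the median of all genes as a dashed line. KDM7A (1.31) and EYA4 (1.30) are the points farthest to the right, and the medians lie between -0.09 and 0.14.

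Other genes were ranked by how closely their log2 values followed SOBP over the 12 arrays, among the 7442 genes at or above the median level. The 5 most alike were SELENOI, an enzyme of phospholipid synthesis, at r = 0.93, POMK, a kinase of sugar chains, at 0.91, SPIRE1, which starts actin filaments, at 0.91, MPZL3 at 0.90 and NEMP1, a protein of the nuclear envelope, at 0.90. After group means were taken away, r was between 0.65 and 0.90 for these 5. The 5 most opposed were the mitotic kinesin KIF2C at -0.94, SPATC1L at -0.93, the metal transporter CNNM4 at -0.90, the chaperone subunit PFDN1 at -0.90 and profilin PFN2 at -0.89. In each of these 10 genes both differences between shMOF and control were smaller in size than those of SOBP. SELENOI differed between shMOF and control arrays by 0.45 in ERα(+) and -0.26 in ERα(-), and KIF2C by -0.16 and 0.15. ARID5B was the 43rd most alike. In all, 236 of these genes had an r beyond 0.8 in either direction.

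For ARID5B the 5 most alike were WDR48, a partner of deubiquitinating enzymes, at r = 0.96, AVL9 at 0.94, the zinc finger gene ZNF134 at 0.94, TET1, which oxidises methylated cytosine in DNA, at 0.93, and ZNF470 at 0.92. TET1 differed between shMOF and control arrays by 0.55 in ERα(+) and -0.52 in ERα(-), and ZNF470 by 0.59 and -0.60. The 5 most opposed were CD68 at -0.95, ezrin (EZR) at -0.94, LRRK1 at -0.93, G0S2 at -0.93 and moesin (MSN) at -0.93. Ezrin and moesin tie actin to the cell membrane, and G0S2 inhibits the breakdown of stored fat. G0S2 differed by -1.61 in ERα(+) and 0.91 in ERα(-), and CD68 by -0.58 and 0.52. SOBP was the 101st most alike to ARID5B, and 520 genes had an r beyond 0.8 in either direction. All 20 genes share the 12 arrays and the 4 group means with the genes they were matched to. CD68, a lysosomal protein gene, is also a marker of macrophages. Of 6 immune markers 3 were measured. Their mean level was 4.46 to 4.55 in shMOF ERα(+), 4.60 to 4.98 in control ERα(+), 4.41 to 4.85 in shMOF ERα(-) and 4.54 to 4.74 in control ERα(-). The other 2, CD14 at 3.30 and LYZ at 3.57, lay below the median level of 5.66. Over the 12 arrays CD14 had r = 0.01 and LYZ r = 0.22 with ARID5B, against -0.95 for CD68. Whether the immune markers moved with ARID5B by more than CD68 itself was not tested.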

How the data were processed

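The deposited values are log2 signals per probe set, deposited by the authors. The submitters' processing notes name RMA and, as software, Affymetrix Expression Console 1.4.1. RMA corrects background, equalises the distributions of arrays and summarises probes, and can compress differences of dim transcripts. The build behind the probe sets is not given in the sources used here. Of 53617 probe sets, 16098 had 1 gene symbol in the platform annotation, 0 had several and 37519 were unnamed. Symbols were updated through gene IDs to RefSeq (GRCh38.p14), and each of 14884 genes was read from its brightest probe set on average. Array medians lay between 4.53 and 4.59. The 3 arrays per group limit the precision.

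A mean per group was fitted on all genes with limma 3.58.1 (R 4.3.3), whose moderated two-sided test had 8 residual degrees of freedom before moderation and gave the SEs. P-values were adjusted by Benjamini-Hochberg over all genes within a comparison, and genes were called at an adjusted p below 0.05. The fit was tested on simulated data. SOBP and ARID5B, the gene lists and the tests were chosen with earlier results of these data known. Genes were named by rule: the 5 most alike and 5 most opposed by Pearson's r, the 5 nearest tested genes on each side, per list up to 4 genes lowest in interaction p, ARID5A, PHF2, MCRS1, KAT8 and ESR1. PHC1, PHC2 and PHC3 were named outside this rule. Alternatives were other summaries, normalizations, variance models, weights, blocks and leaving out each array.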

Additional observations from a re-analysis of the deposited data

Results flagged for a closer look

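SOBP drew attention because all shMOF arrays lay below control in ERα(-) and above it in ERα(+), an interaction of 1.21 on the log2 scale. It was chosen for that turn, so no p-value is a test of its difference here. Of the genes named for their likeness to SOBP or ARID5B, 7 showed the same kind of turn without overlap in either condition. AVL9 (0.66) and SELENOI (0.71) turned in the direction of SOBP. SPATC1L (-0.95), PFN2 (-0.58), PFDN1 (-0.48), CNNM4 (-0.38) and KIF2C (-0.31) turned the other way. Their choice by likeness to genes that turn favours such a turn and fixes its direction, so the count of 7 is no result about them. Limma called none of them in the interaction, with adjusted p between 0.169 (SPATC1L) and 0.271 (KIF2C), and their choice by likeness affects these p-values too. With 3 arrays in a group, single outlying arrays were not sought.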

How the results depend on the processing

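Of 190 repeats of the differences of SOBP and ARID5B, 68 could not move by construction, since each gene has 1 probe set, the replicate block is balanced, or the array left out was in neither group compared. The other 122 kept their sign, and 119 of them moved by less than the SD within groups. The remaining 3 concerned ARID5B. In a fit that also held principal component 1, added after seeing the data, its shMOF difference in ERα(+) was 0.24 and its interaction 0.74, and with array quality weights its ERα difference in shMOF arrays was 0.85. The SD of ARID5B, 0.383, is a wide measure. Its ERα difference in shMOF arrays, 0.46, passed at 0.18 with that component and at 0.24 without shMOF ERα(-) replicate 3. By a factor over 1.5, several differences of ARID5B moved and none of SOBP. The cause was not tested. The count of called genes depended on the fit. By limma it was 0 in all 5 comparisons, with 711, 2787, 1894, 793 and 2685 genes below 0.05 before adjustment. Array quality weights gave counts of 645 (shMOF in ERα(-)), 1629 (shMOF in ERα(+)), 217 (ERα in control), 1918 (ERα in shMOF) and 3258 (interaction). They gave shMOF ERα(-) replicate 3 a weight of 8.86, against 0.59 and 0.36 for replicates 1 and 2. Control ERα(+) replicate 1 had 3.70, against 0.50 and 0.45 for replicates 2 and 3. The weighted means of these groups thus rest mostly on 1 array each. Only the 2 groups compared gave 9 for ERα in control. Leaving out 1 array gave 0 to 5, 0 to 30, 0 to 4, 0 to 11 and 0 to 570 in the order of these counts, each highest without shMOF ERα(-) replicate 2. The interaction had 11 calls without shMOF ERα(+) replicate 1, and 1 (MIR520A) without control ERα(+) replicate 3, as did shMOF in ERα(+). For the interaction, the letter of the sample code in the labels, whose meaning is not given, called 5 genes as a random block with an estimated correlation of -0.147. They were IFI44L, IFIT3, KIF5C, LINC00353 and SOBP, and for SOBP, chosen for this turn, the call is no test. The replicate block called 2 (ITM2A and MMP16), and these names were chosen after seeing the values. Under the replicate block, the interactions of SOBP (1.21) and ARID5B (1.34) are fixed by the design, and only their SEs could differ, at 0.198 and 0.348. Same-numbered arrays of different groups had deviations that correlated between -0.18 and 0.45, over 0.1 in 5 of 18 pairs. Arrays of different numbers correlated between -0.42 and 0.37, over 0.1 in 10 of 36 pairs. Whether the numbers pair the arrays is not given by the labels and was not tested. Leaving out genes below the median level kept 7442 of 14884 genes. Groups then did not overlap for 521 genes in place of 1304 (shMOF in ERα(-)) and 1862 in place of 2867 (ERα in control). For ERα in shMOF the count was 608 in place of 1415, and 121 in place of 187 turned sign without overlap. These counts come from different numbers of genes and did not all fall in the same proportion.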

Other observations

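SOBP and ARID5B were not alone at the edge of the data. Besides SOBP, 22 genes (ARID5B among them) had differences between shMOF and control arrays at least as far as those of SOBP in both conditions, and besides ARID5B, 12 genes did so relative to it. Among both sets, and chosen after their values were seen, IGF2BP1, an RNA-binding protein of fetal tissue, was at 1.49 in ERα(+) and -1.40 in ERα(-). LGR5, a receptor of the Wnt pathway, was at 1.49 and -0.82. IFI44L, an interferon-induced gene, was at 1.66 and -0.66, and FLRT3, an adhesion protein gene, at 0.86 and -0.88.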
